A study of Homo sapiens with 36 samples.

Results

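Carboplatin-treated A2780 cells without serine and glycine were compared between the platinum-sensitive and the platinum-resistant line, that is, cis -SG carbo against wt -SG carbo. The libraries were chosen by the submitters' labels alone: 3 libraries of A2780 WT (libraries 10, 11 and 12) and 3 of A2780 cis (libraries 22, 23 and 24), 6 of the 36 in the series. A2780 is an ovarian cancer cell line, and wt is the parental line. The cis line was derived from it by long exposure to cisplatin, so cisplatin history and resistance cannot be told apart between these groups, and each line is represented by 1 population of cells. Both groups grew in homemade RPMI with dialyzed serum, without serine and glycine (-SG), and both received carboplatin, for which the labels give 6 M as the dose. That unit is probably a lost micro sign, since the study's treatments are in µM. By the study's methods experiments were ended on day 5 where nothing else is said, and no day is named for the sequenced cells. The remaining libraries used below are wt and cis cells in complete medium, with and without carboplatin, and without serine and glycine but without drug, again 3 libraries each. The study's legends describe its RNA-seq replicates as technical, and p-values therefore measure only the spread between such libraries, not between cultures. In bulk RNA, fewer cells that express a gene and less of its RNA per cell cannot be told apart.

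Serine is made from a glycolytic intermediate by PHGDH, PSAT1 and PSPH, and cells without an external supply depend on this route. Serine and glycine feed the folate cycle, which supplies one-carbon units for purines and thymidylate. Shortage of amino acids activates the kinase GCN2, which leads to translation of the transcription factor ATF4 and with it of genes for amino acid synthesis, transport and tRNA charging. Carboplatin forms DNA crosslinks, which stall replication forks, engage the Fanconi anemia and homologous recombination pathways, and activate p53 and its targets such as the CDK inhibitor p21 (CDKN1A).

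The 6 libraries held 14732873 to 16664649 counts on genes. The reads on no annotated feature were 7.99% to 8.77% of the counts in the 3 wt libraries and 8.53%, 17.9% and 14.9% in libraries 22, 23 and 24. Library 11 stood apart in transcript length. Relative to the other 2 wt libraries its median log2 level was 0.15 higher in the shortest of 10 equal classes of genes by exon length and fell by 0.19 in the longest class. The mean chi-square of the counts over genes, which is near 1 for pure sampling noise, was 1.20 between libraries 10 and 12, 25.6 and 24.6 between library 11 and these, and 3.31 to 8 within cis. No pair agreed within sampling noise and all 6 libraries were used. Results are given with library 11. Values without it are given for some of the genes and lists that depend on it, and other sizes move without it as well.

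**Figure D1:**
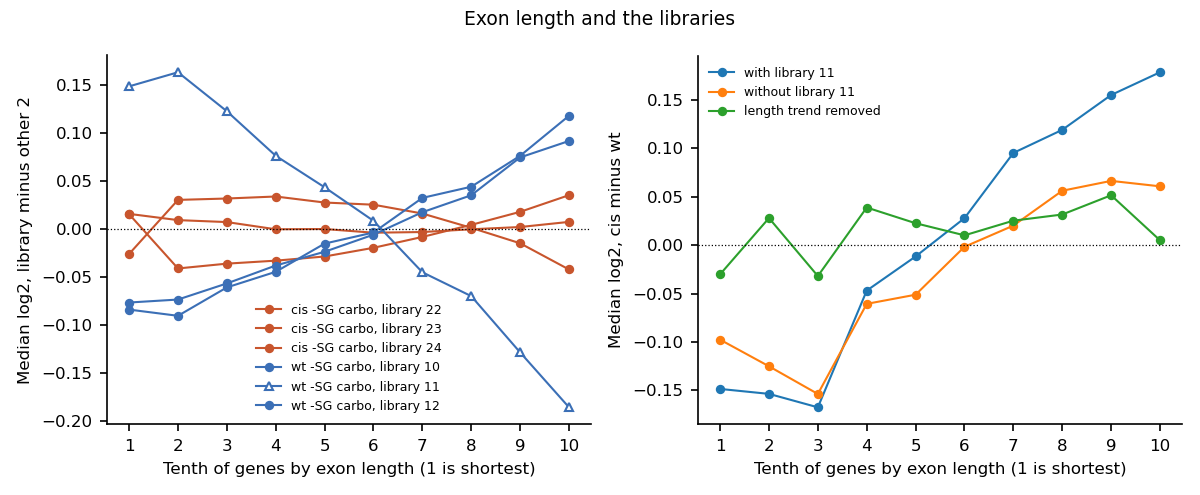
Exon length and the 6 libraries. The left panel plots, for 10 equal classes of genes from the shortest to the longest exons, the median log2 difference of each library from the other 2 of its group; library 11 (open triangles) runs from 0.15 to -0.19 and the cis libraries stay near 0. The right panel plots the median log2 difference of cis from wt in the same classes, which runs from -0.15 to 0.18 with library 11, from -0.10 to 0.06 without it, and stays near 0 after removal of the length trend.

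Markers of the labelled tissue were few. Of the 8 markers of Müllerian and ovarian carcinoma cells, PAX2 made up almost the whole sum in wt, which was 174.9 to 176.3 CPM (library-scaled counts, normalized by TMM), while the cis sum was 1.36 to 1.91. The 5 epithelial markers summed to 22 to 23.1 CPM in wt and to 42.6 to 45.6 in cis. Most of this cis sum was KRT18. Of the 4 epithelial markers tested, 1 was higher and 3 were lower in cis, with a median log2 difference of -1.39. Among the 3, KRT19 was near 0 in cis and passed the filter on low counts only through wt, which fixed its direction. The 5 leukocyte markers summed to at most 0.466 CPM in any library. The 5 fibroblast markers summed to 2341 to 2818 CPM in wt and to 629 to 673 in cis. This sum rests on collagen genes, which are described below, whereas DCN and LUM were close to 0.

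Between the lines, 11197 of 15086 tested genes passed an adjusted p of 0.05 in edgeR's quasi-likelihood test, or 74.2%. In cis, 5589 (37.0%) were higher and 5608 (37.2%) lower. At least a 2-fold difference was seen in 5023 genes (33.3%), with 2529 (16.8%) higher and 2494 (16.5%) lower. The levels of the groups did not overlap for 11646 genes (77.2%). Most genes therefore passed, and the counts in a gene list below are to be read against these shares. A listed gene near 0 in one line passed the filter on low counts only through the other line, which fixed its direction. Without library 11, 11834 of 15656 genes passed (75.6%). Of the genes called with library 11, 10777 were called in the same direction without it and none in the opposite direction. Another 420 were called only with it and 778 only without it. The median log2 difference over all genes was 0.01, and 0.15 when libraries were scaled by their total counts. Differences in this range depend on the scaling, and the split between higher and lower genes was then 6466 to 4863.

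**Figure D2:**
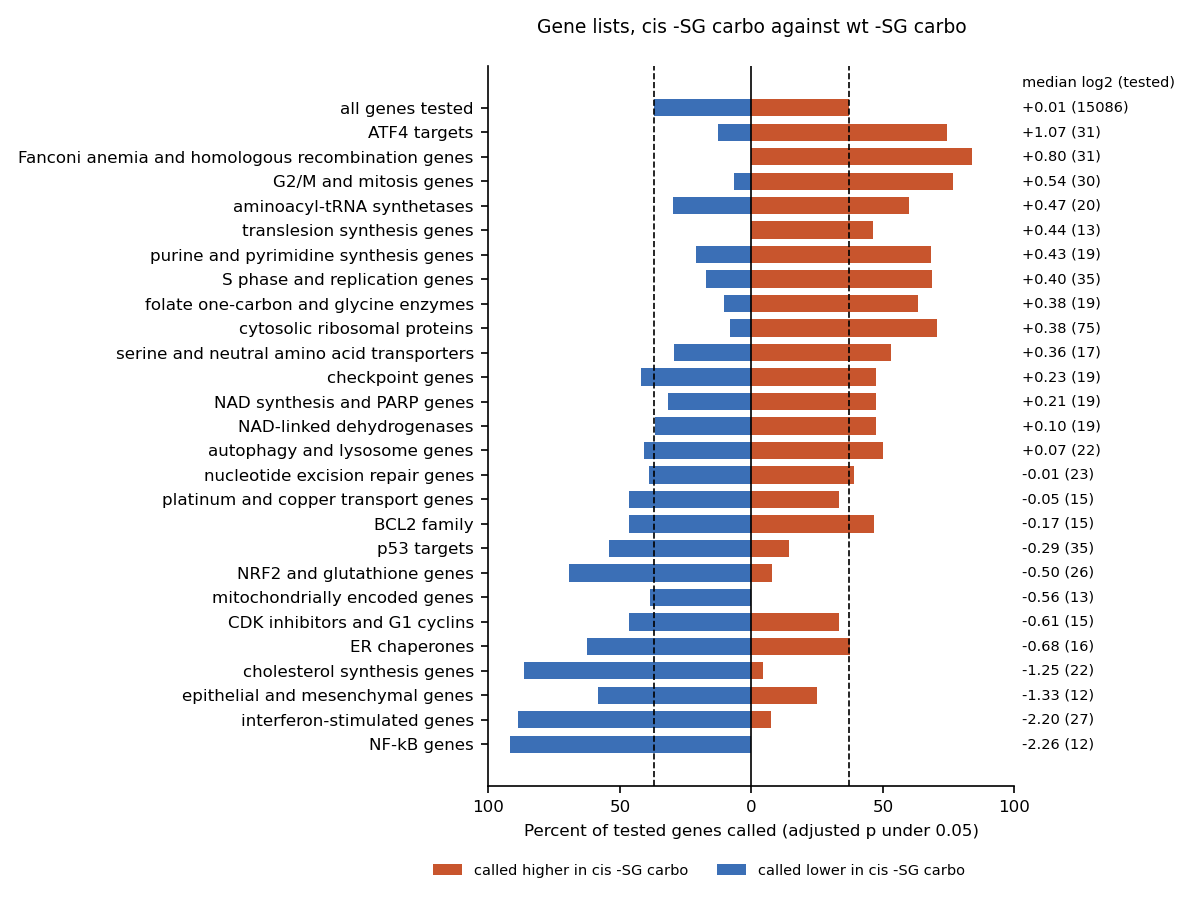
Shares of each gene list higher (orange, to the right) or lower (blue, to the left) in cis -SG carbo, in percent of its tested genes, for lists of 12 or more tested genes. Dashed lines mark the shares among all genes, 37.0% and 37.2%, and the column at the right gives each list's median log2 difference with the number tested, from 1.07 for ATF4 targets to -2.26 for NF-kB genes.

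The first enzyme of serine synthesis did not separate the lines. PHGDH (ENSG00000092621, chromosome 1, 120191034 to 120286841 of GRCh37, plus strand), phosphoglycerate dehydrogenase, stood at 155.5, 176.4 and 163.7 CPM in wt and at 173.7, 163.6 and 167.3 CPM in cis. The groups overlapped. The log2 difference was 0.04 ± 0.07 (SE; adjusted p = 0.591), and 0.18 (adjusted p = 0.0274) when scaled by total counts. In the other 3 conditions PHGDH was lower in cis, by log2 values of -1.66 in untreated cells, -0.47 with carboplatin and -1.36 without serine and glycine. In wt it averaged 476 CPM untreated, 178 with carboplatin, 536 without serine and glycine, and 165 with both, and in cis it averaged 152, 130, 204 and 168. The line difference in deprived, treated cells exceeded that in untreated cells by 1.68 ± 0.07 (adjusted p = 3.45e-12), that in deprived cells by 1.40 ± 0.07 (adjusted p = 2.61e-11) and that under carboplatin alone by 0.48 ± 0.07 (adjusted p = 2.23e-05).

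Both enzymes after PHGDH were higher in cis. PSAT1 (ENSG00000135069, chromosome 9, 80912041 to 80945009), the phosphoserine aminotransferase, gave 413, 447 and 420 CPM in wt and 681, 643 and 674 CPM in cis. Every cis library lay above every wt library, with a log2 difference of 0.66 ± 0.07 (adjusted p = 2.87e-06). PSAT1 was lower in cis in untreated (-0.34) and deprived cells (-0.53) and higher in cis with carboplatin (0.61). PSPH (ENSG00000146733, chromosome 7, 56078744 to 56119297), the phosphatase of the last step, gave 44.8, 45.3 and 47.4 CPM in wt and 103, 91.8 and 97.5 CPM in cis. These groups were also apart, by 1.11 ± 0.07 (adjusted p = 8.42e-08), against 0.17 in untreated cells.

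**Figure D3:**
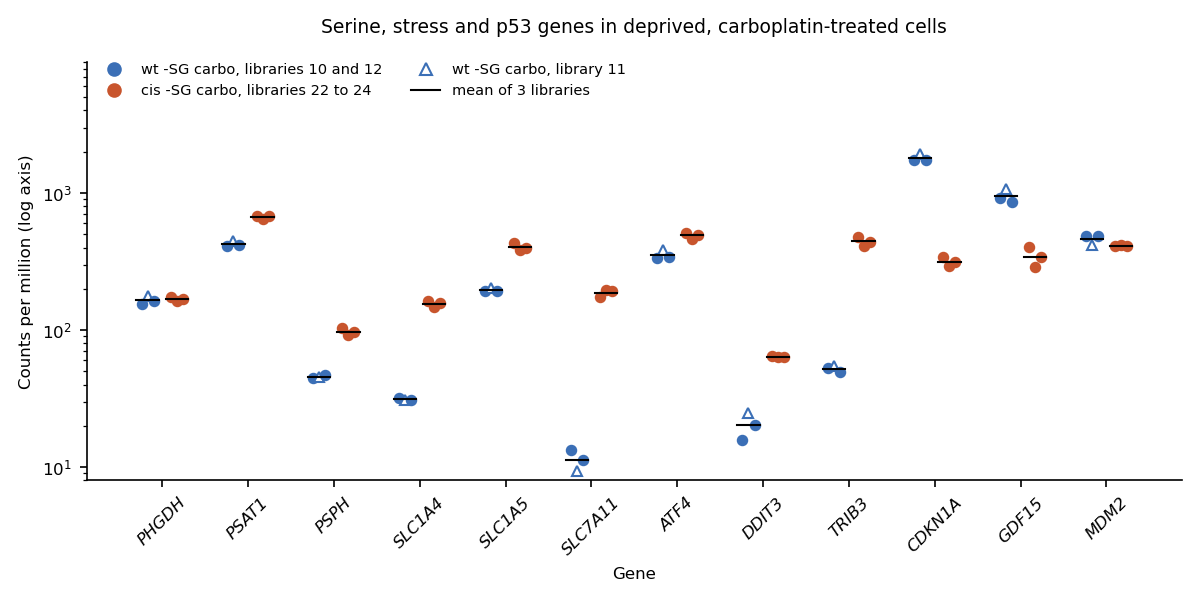
Levels of 12 serine, stress and p53 genes in the 6 libraries, in CPM on a log axis. Each point is 1 library, open triangles are library 11 and bars are means of 3 libraries; PHGDH and MDM2 are the genes whose groups touch or overlap, SLC7A11 is 16.7-fold higher in cis, and CDKN1A and GDF15 lie higher in wt.

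Amino acid carriers differed in both directions. Of 17 transporters of serine and neutral amino acids, 9 were higher and 5 lower in cis, with a median log2 difference of 0.36. SLC1A4, a carrier of serine and alanine, stood at 31.9, 30.8 and 31.1 CPM in wt and at 163, 147 and 156 CPM in cis. The cis libraries were all several-fold above wt, by 2.33 ± 0.08 on the log2 scale (adjusted p = 1.46e-10). SLC1A5, the glutamine and neutral amino acid exchanger, gave 193, 203 and 194 CPM in wt and 435, 382 and 395 CPM in cis (1.06 ± 0.07, adjusted p = 1.3e-07). SLC7A11 (ENSG00000151012, chromosome 4, 139085251 to 139163503), which imports cystine in exchange for glutamate, gave 13.3, 9.4 and 11.2 CPM in wt and 175, 195 and 192 CPM in cis. It was 16.7-fold higher in cis (log2 4.07 ± 0.11, adjusted p = 4.03e-11), against log2 differences of 1.34, 2.57 and 1.43 in untreated, carboplatin-treated and deprived cells. SFXN3, a mitochondrial serine carrier, was also higher in cis (2.76 ± 0.12). In the other direction, SLC43A2, a carrier of large neutral amino acids, stood at 106 to 112 CPM in wt and 23.3 to 27.5 in cis (-2.08 ± 0.08). SLC38A4 (-1.24 ± 0.17) and the main mitochondrial serine carrier SFXN1 (-0.62 ± 0.06) were lower in cis as well.

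Of 19 enzymes of the folate cycle and of glycine metabolism, 12 were higher and 2 lower in cis, with a median of 0.38. ALDH1L2, which oxidizes formyl-tetrahydrofolate in mitochondria, gave 74.7, 62.5 and 77.2 CPM in wt and 302, 303 and 300 CPM in cis. The groups were 2.09 ± 0.09 apart on the log2 scale (adjusted p = 1.49e-09). The cytosolic serine hydroxymethyltransferase SHMT1 (1.19 ± 0.08) and AMT of the glycine cleavage system (1.49 ± 0.22) were higher in cis. The lower genes were TYMS, which makes thymidylate, at 99.2 to 111 CPM in wt and 69.5 to 71.3 in cis (-0.54 ± 0.07), and the folate carrier SLC25A32 (-0.36 ± 0.06). Of 19 genes of purine and pyrimidine synthesis, 13 were higher and 4 lower (median 0.43). They included PRPS2 (1.5 ± 0.07), which makes the ribose donor, and DHODH (1.20 ± 0.10) and CAD (1.11 ± 0.10) of pyrimidine synthesis. NME1, a nucleoside diphosphate kinase, was lower in cis (-1.54 ± 0.09).

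ATF4 itself, and most of a list of its known targets, were higher in cis. The core of the amino acid response element that ATF4 binds, TGATGNAA, was searched on both strands of the RefSeq promoters of GRCh38.p14 from 250 bases before to 50 after the start. It was present in 5 of the 24 list promoters that matched and in 3.67% of all 27305. A match describes letters and not binding. The matches below are shown because they lie in genes of the list that moved in both directions, and they were chosen after the values were seen. Capitals mark the matched letters, and CHAC1 and HERPUD1 carry the complement.
ASNS: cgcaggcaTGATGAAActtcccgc
CHAC1: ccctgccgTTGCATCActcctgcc
HERPUD1: gcggcgggTTGCATCAgcccgtgc
ATF3: ggtcaggaTGATGGAAggctgtca
ASNS, the asparagine synthetase, stood at 131 to 145 CPM in wt and at 285 to 303 CPM in cis. CHAC1, which degrades glutathione, stood at 31.1 to 36.5 and 79.3 to 93.3 CPM, and HERPUD1, an endoplasmic reticulum stress protein, at 45.7 to 57.2 and 116 to 126 CPM. ATF3, a stress-induced transcription factor, went the other way, at 90.7 to 101 CPM in wt and 72.9 to 75.9 in cis. Of the 5 list genes with the motif, 4 were higher and 1 lower in cis. FGF21, among the 4, was close to the threshold (adjusted p = 0.0475 in edgeR). Of all 31 list genes, 23 were higher and 4 lower, and over all tested genes 37.0% were higher and 37.2% lower. A role of the motif was not tested.

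ATF4 gave 333, 381 and 343 CPM in wt and 514, 463 and 496 CPM in cis, with no overlap (0.50 ± 0.08, adjusted p = 9.38e-05). Of 31 ATF4 targets, 23 were higher and 4 lower in cis, 17 of them at least 2-fold higher, and their median log2 difference was 1.07 against 0.01 for all genes. The median was 0.01 in untreated cells, 0.53 with carboplatin and 0.51 in deprived cells. The pseudokinase TRIB3 gave 52.7, 54.8 and 49.7 CPM in wt and 478, 411 and 442 CPM in cis, or 3.10 ± 0.08 (adjusted p = 3.56e-11). DDIT3, which encodes the stress factor CHOP, gave 15.8, 24.8 and 20.4 CPM in wt and 64.3, 63.8 and 63.8 CPM in cis (1.67 ± 0.13, adjusted p = 6.54e-07). Library 11 was the highest of the wt libraries here and still far below cis. CTH, which makes cysteine by transsulfuration, gave 4.44, 5.72 and 4.99 CPM in wt and 43.2, 43.8 and 42.9 CPM in cis (3.11 ± 0.10). The junction protein CLDN1 was higher in cis as well (3.22 ± 0.19), at under 8 CPM. The targets lower in cis included INHBE, a secreted inhibin subunit, at 47.2 to 48.8 CPM in wt and 14.1 to 16.5 in cis (-1.62 ± 0.08), NUPR1 (-1.01 ± 0.09) and ERO1A (-0.48 ± 0.07).

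The enzymes that charge tRNAs were divided. Of 20 cytosolic aminoacyl-tRNA synthetases, 12 were higher and 6 lower in cis (median 0.47). AARS1, for alanine, gave 300, 241 and 298 CPM in wt and 721, 670 and 680 CPM in cis (1.32 ± 0.09). WARS1, for tryptophan, gave 613, 638 and 620 CPM in wt and 322, 318 and 314 CPM in cis (-0.95 ± 0.06), and RARS1 and HARS1 were lower by similar amounts. Of 16 chaperones of the endoplasmic reticulum, 6 were higher and 10 lower (median -0.68). HSPA5, or BiP, stood at 1166 to 1214 CPM in wt and 2586 to 2935 CPM in cis (1.22 ± 0.07), while DNAJC3 (-1.43 ± 0.09), SDF2L1 (-1.30 ± 0.11) and CRELD2 (-1.26 ± 0.07) were lower in cis. The list's median was 0.56 in untreated cells.

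More targets of p53 were lower than higher in cis. CDKN1A (ENSG00000124762, chromosome 6, 36644237 to 36655114), encoding p21, gave 1754, 1934 and 1739 CPM in wt and 338, 295 and 314 CPM in cis. The wt libraries were all above cis, by 5.66-fold (log2 -2.50 ± 0.08, adjusted p = 1.46e-10). GDF15, a secreted stress cytokine, gave 916, 1072 and 865 CPM in wt and 401, 286 and 342 CPM in cis (-1.45 ± 0.13, adjusted p = 4.83e-06). MDM2, the ubiquitin ligase of p53, gave 485, 419 and 484 CPM in wt and 407, 419 and 408 CPM in cis, where library 11 touched the cis range. Its difference of -0.15 ± 0.08 did not pass (adjusted p = 0.0868), but passed without library 11 (-0.26, adjusted p = 1.49e-05) and with the length trend removed (-0.25, adjusted p = 0.00198). In untreated cells MDM2 was higher in cis (0.65).

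Of 35 p53 targets, 5 were higher and 19 lower in cis, with a median of -0.29. The 5 became 8 when scaled by total counts. Without library 11, 4 were higher and 23 lower (median -0.34). The median was 0.07 in untreated cells, -0.59 with carboplatin and 0.38 in deprived cells. TP53INP1, a proapoptotic stress gene, gave 146, 128 and 144 CPM in wt and 0.509, 0.957 and 0.845 CPM in cis (-7.47 ± 0.14), and its line difference in untreated cells was -7.55. The tetraspanin CD82 gave 68.1, 72.9 and 72.5 CPM in wt and 2.66, 2.51 and 1.92 CPM in cis (-4.89 ± 0.11). In untreated cells CD82 averaged 0.913 CPM in wt and 1.55 in cis, so the lines were both low there. PMAIP1, which encodes the BH3-only protein NOXA, gave 3.88, 3.18 and 2.46 CPM in wt and 45.7, 44.8 and 45.3 CPM in cis (3.85 ± 0.12, adjusted p = 1.39e-10). RRM2B (0.54 ± 0.08) and EDA2R (0.52 ± 0.07) were also higher in cis.

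The BCL2 family was even, with 7 of 15 genes higher and 7 lower in cis. Among its death promoters, HRK gave 0.353, 0.508 and 0.266 CPM in wt and 14.8, 13.1 and 15.6 CPM in cis (5.25 ± 0.21), and BCL2L11, which encodes BIM, stood at 3.56 to 4.44 CPM in wt and 16.4 to 19.8 in cis (2.22 ± 0.13). The effectors were lower in cis. BAK1 gave 45.4 to 49 CPM in wt and 13.9 to 14.8 in cis (-1.71 ± 0.08), and BAX gave 202 to 247 and 102 to 112 CPM (-1.01 ± 0.09). BMF was lower in cis too (-1.45 ± 0.19).

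Genes of mitosis were mostly higher in cis. Of 30 genes of G2 and mitosis, 23 were higher and 2 lower, with a median of 0.54. Without library 11, 25 were higher and 2 lower (median 0.42). TOP2A (ENSG00000131747, chromosome 17, 38544777 to 38574148), topoisomerase IIα, gave 111, 85.1 and 114 CPM in wt and 286, 275 and 276 CPM in cis, which did not overlap (1.45 ± 0.11, adjusted p = 2.43e-07). The spindle checkpoint kinase TTK (1.25 ± 0.10) and the cytokinesis factor ECT2 (1.15 ± 0.07) were higher in cis. The exceptions were CDK1, at 94.6 to 112 CPM in wt and 59.8 to 63.7 in cis (-0.74 ± 0.08), and AURKB (-0.45 ± 0.11). The difference between the lines was larger under carboplatin alone, where the list's median was 1.97, and was in the other direction in deprived cells without drug, at -0.86. By the test of the difference, 29 of the 30 genes had a line difference moved toward lower in cis compared with carboplatin alone. Compared with deprivation alone, 30 had one moved toward higher in cis. TOP2A averaged 532 CPM in untreated wt cells, 130 with carboplatin, 505 without serine and glycine, and 103 with both, against 684, 615, 366 and 279 in cis.

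S phase genes followed the same pattern with exceptions. Of 35, 24 were higher and 6 lower in cis (median 0.40), and the 6 became 3 with total counts. E2F2 gave 8.25, 8.71 and 9.79 CPM in wt and 51.6, 43.9 and 47.7 CPM in cis (2.44 ± 0.10), and CCNE2 (1.65 ± 0.12) and E2F1 (1.26 ± 0.14) were higher too. CCNE1, in contrast, was lower in cis (-1.14 ± 0.08), and so were the ribonucleotide reductase subunit RRM2 (-0.94 ± 0.06) and GINS1 (-0.61 ± 0.07). Of 15 CDK inhibitors, cyclins and pocket proteins of G1, 5 were higher and 7 lower (median -0.61). RBL1 (1.88 ± 0.09), CDKN2A (1.12 ± 0.19) and CDKN1B (1.09 ± 0.07) were higher in cis. CDKN2C (-2.84 ± 0.14) was lower, and cyclin D2 (CCND2) gave 2071, 2338 and 2111 CPM in wt and 1046, 962 and 986 CPM in cis (-1.10 ± 0.07).

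Crosslink repair genes were higher in cis with few exceptions. Of 31 Fanconi anemia and homologous recombination genes, 26 were higher and 0 lower in edgeR's test, with a median of 0.80 against 0.01 for all genes. The number lower was also 0 at an unadjusted p under 0.05 and in DESeq2. FANCE (ENSG00000112039, chromosome 6, 35420115 to 35434881), a core complex subunit, gave 4.51, 4.89 and 6.39 CPM in wt and 23.9, 20.1 and 23.2 CPM in cis (2.10 ± 0.14, adjusted p = 6.96e-08). BARD1, the partner of BRCA1, gave 5.50, 3.81 and 4.53 CPM in wt and 17.9, 20.1 and 17.3 CPM in cis (2.02 ± 0.14), and RAD51B was higher as well (1.98 ± 0.19). Library 11 was the lowest wt library for BARD1. The list's median was 0.69 without it. In untreated cells this median was 0.23, with carboplatin 1.31 and in deprived cells -0.25.

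Checkpoint genes were divided, with 9 of 19 higher and 8 lower in cis. CHEK1 stood at 17.5 to 19 CPM in wt and 43.7 to 47.7 in cis (1.35 ± 0.08). ATR gave 66, 44.9 and 62.2 CPM in wt and 103, 114 and 113 CPM in cis (0.95 ± 0.13). ATM gave 167, 105 and 171 CPM in wt and 226, 302 and 283 CPM in cis (0.89 ± 0.20, adjusted p = 0.0049). For both long transcripts library 11 was the lowest, and without it the differences were 0.75 and 0.65, still past the threshold. TP53BP1 (-0.88 ± 0.15), HUS1 (-0.84 ± 0.08) and WEE1 (-0.69 ± 0.06) were lower in cis. Of 13 translesion synthesis genes, 6 were higher and 0 lower in edgeR's test with library 11 (0 also at an unadjusted p under 0.05 and in DESeq2). Without it 2 were lower, and the list's median went from 0.44 to 0.19. The higher genes included the polymerase subunit REV3L, at 20.8 to 32.4 CPM in wt and 72.3 to 87.1 in cis (1.56 ± 0.15). PRIMPOL (1.14 ± 0.11) and HLTF (0.94 ± 0.09) were higher too.

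In nucleotide excision repair, 9 of 23 genes were higher and 9 lower, close to the shares among all genes. GTF2H3 (0.63 ± 0.07), a subunit of the repair factor TFIIH, was higher and the endonuclease gene ERCC5 lower (-1.66 ± 0.14). Of 6 tested mismatch repair genes, MLH3 (1.33 ± 0.11), MSH3 (0.50 ± 0.09) and PMS1 (0.41 ± 0.08) were among the 4 higher in cis, and MSH6 was lower (-0.80 ± 0.08). PARP1, the DNA damage sensor that consumes NAD, gave 270, 254 and 281 CPM in wt and 354, 319 and 336 CPM in cis. The groups did not overlap (0.34 ± 0.07, adjusted p = 0.00137), but the difference no longer passed with the length trend removed (0.15, adjusted p = 0.0982).

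**Figure D4:**
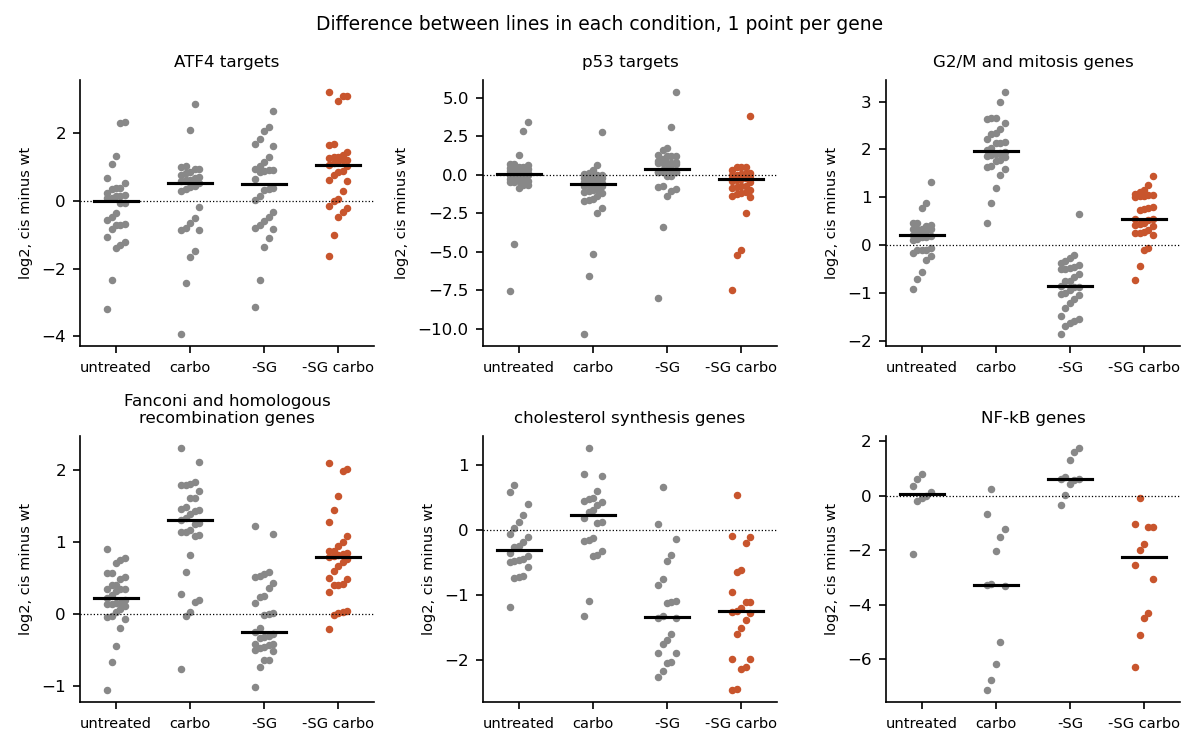
Log2 difference of cis from wt in the 4 conditions for 6 gene lists, 1 point per gene and a bar at the median, with deprived, carboplatin-treated cells in orange. For G2 and mitosis genes the median goes from 0.20 in untreated cells to 1.97 with carboplatin, -0.86 without serine and glycine and 0.54 with both, and for NF-kB genes from 0.06 to -3.26, 0.62 and -2.26 over 8, 12, 10 and 12 tested genes.

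Cholesterol synthesis was lower in cis. Of 22 genes, 19 were lower, 15 of them at least 2-fold, and 1 was higher, with a median of -1.25. HMGCS1 (ENSG00000112972, chromosome 5, 43287572 to 43313614), the synthase before the rate-limiting reductase, gave 295, 281 and 305 CPM in wt and 54.3, 52.2 and 50.9 CPM in cis, 5.54-fold apart (-2.47 ± 0.07, adjusted p = 7.11e-11). MVD, the mevalonate decarboxylase, gave 55.8, 57.8 and 56.5 CPM in wt and 10.8, 10.3 and 9.85 CPM in cis (-2.44 ± 0.08), and HSD17B7 was lower too (-2.14 ± 0.14). SC5D was the gene that was higher (0.53 ± 0.07). The median was -0.31 in untreated cells, 0.22 with carboplatin and -1.34 in deprived cells.

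**Figure D5:**
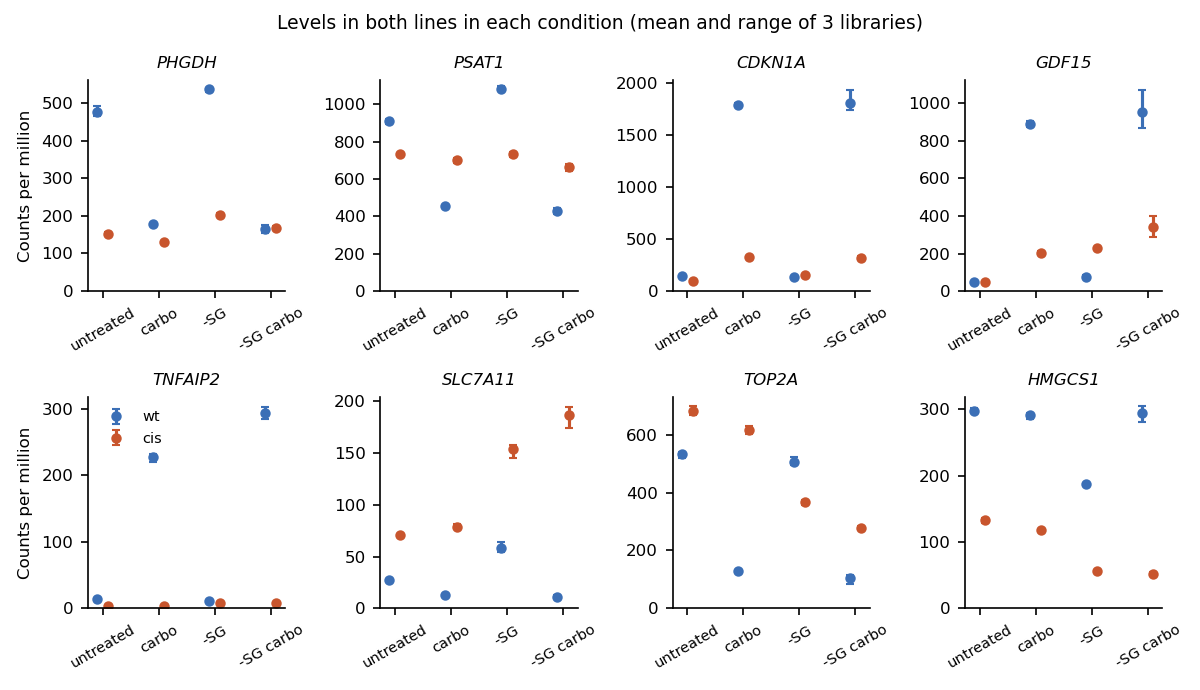
Mean CPM (points) and range (bars) of 3 libraries in wt (blue) and cis (orange) in the 4 conditions for 8 genes. In wt, PHGDH is near 500 CPM without carboplatin and below 200 with it, whereas CDKN1A and GDF15 are high only with it; in deprived, treated cis cells SLC7A11 averages 187 CPM and HMGCS1 52.5 CPM.

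Among the lists with 12 or more tested genes, interferon-stimulated and NF-kB genes had the lowest medians. An interferon-stimulated response element is bound by a complex that holds IRF9, and NF-kB dimers bind a palindromic site. A promoter was counted for the element where it held TTTC, any 2 bases and TTTC on either strand, which was the case in 17 of the 25 interferon list promoters that matched and in 3.65% of all. The NF-kB site was taken as GGG, any 2 bases and TTTCC, and it was found in 9 of 16 NF-kB list promoters and in 1.92% of all. These lists hold genes known for the motifs, and the matched windows below serve to show them. They were picked after their values were seen.
BST2: ctttctggGAAACTGAAActgaaaac
IFITM1: acttctgaGAAACTGAAAcgacaggg
TAP1: gcggccgcTTTCGATTTCgctttccc
NFKBIA: actggcttGGAAATTCCCcgagcctg
NFKB1: acgtcagtGGGAATTTCCagccagga
Of the interferon list genes with the motif 16 were tested, and 15 were lower in cis. Of the 9 NF-kB genes with the motif only 4 passed the filter on low counts and were tested, and these 4 were lower. Over all tested genes 37.2% were lower. Some genes of both lists passed the filter only through wt, as described below, and a role of the motifs was not tested.

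Of 27 tested interferon-stimulated genes, 24 were lower in cis, 23 of them at least 2-fold, and 2 were higher (1 without library 11), with a median of -2.20. BST2, a surface protein that tethers virions, gave 234, 283 and 237 CPM in wt and 0.0566, 0 and 0.113 CPM in cis, where it had 1, 0 and 2 counts. OAS2, an antiviral synthetase, gave 63.9, 58.4 and 61.7 CPM in wt and 0.340, 0.239 and 0.451 CPM in cis (-7.42 ± 0.15). IFITM1 gave 130, 162 and 136 CPM in wt and 0.962, 0.957 and 1.13 CPM in cis (-7.10 ± 0.14). Its neighbour in the family IFITM2, with near-identical sequence that the counting could split, was higher in cis (0.70 ± 0.10). The abundant member B2M, the light chain of MHC class I, named after its values were seen, stood at 1778 to 2128 CPM in wt and 106 to 115 in cis (-4.07 ± 0.09). The list's median was -1.51 in untreated cells, -2.22 with carboplatin and -1.68 in deprived cells. These medians were below 0 in all 4 conditions.

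The median of the NF-kB list was below 0 in only some conditions, and it covers different genes in different conditions. Of the 19 genes of the list 12 were tested and 11 were lower in cis, with a median of -2.26. The median was 0.06 over the 8 genes tested in untreated cells, 0.62 over the 10 tested in deprived cells and -3.26 over the 12 tested with carboplatin. How far this change rests on which genes passed the filter on low counts was not tested. In both lists, genes such as CX3CL1 and BST2 passed the filter on low counts only through wt, where they were high, which fixed their direction. TNFAIP2 gave 285, 303 and 294 CPM in wt and 8.21, 8.55 and 8.73 CPM in cis (-5.09 ± 0.08, adjusted p = 7.9e-13). In wt it averaged 14.1 CPM untreated, 228 with carboplatin, 10.9 in deprived cells and 294 with both, and in cis its mean was at most 8.49 CPM in any of the 4 conditions. The chemokine CX3CL1, at 24.2 to 27.1 CPM in wt and 0.179 to 0.563 in cis (-6.27 ± 0.21), and the adhesion molecule ICAM1 (-4.47 ± 0.13) had the same profile, with wt means of 0.111 and 0.55 CPM in untreated cells. The leukocyte markers stood at under 0.5 CPM in all 6 libraries.

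Antioxidant genes were mostly lower in cis, and metal-handling genes were divided. Of 26 genes of the NRF2 and glutathione list, 18 were lower and 2 higher (median -0.50). ME1, which makes NADPH, had 251, 245 and 261 counts in wt and 0 counts in each cis library. It was at least 293-fold lower in cis, against a floor of 3 counts over the 3 libraries. The ferritin gene FTH1, whose many processed copies make the counting uncertain, gave 511, 511 and 469 CPM in wt and 101, 67.5 and 87.3 CPM in cis (-2.52 ± 0.14). GPX3 was lower as well (-5.47 ± 0.21). GCLC, the catalytic subunit of glutathione synthesis, was higher in cis at 92.6 to 97 CPM against 36.4 to 38.9 (1.35 ± 0.07), as was GSTA4 (0.63 ± 0.08). Of 15 platinum and copper transport genes 5 were higher and 7 lower. They included the efflux carriers ABCG2 (2.48 ± 0.15, under 11 CPM) and SLC47A1, at 8.99 to 10.9 CPM in wt and 44.6 to 50.8 in cis (2.30 ± 0.10), and the copper importer SLC31A1 (0.57 ± 0.08). The copper chaperones ATOX1 (-1.69 ± 0.11) and CCS (-1.33 ± 0.10) and the exporter ATP7B (-1.32 ± 0.12) were lower in cis. Of 10 metallothioneins, 2 were tested and both were higher in cis, MT2A by 1.25 ± 0.13.

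The genes of NAD metabolism were divided. Of 19 tested genes in a list made for NAD synthesis and the PARP family, 9 were higher and 6 lower in cis. The list also holds sirtuins, NNT and NNMT, so these counts are not of NAD synthesis and PARP genes alone. QPRT, an enzyme on the route from tryptophan to NAD, gave 40.7, 40.2 and 37 CPM in wt and 0.679, 0.598 and 0.394 CPM in cis (-6.11 ± 0.15). SIRT6 (-0.85 ± 0.11) and PARP4 (-0.73 ± 0.10) were lower too. The deacetylase SIRT1 gave 88.5, 79 and 89.2 CPM in wt and 286, 276 and 287 CPM in cis (1.74 ± 0.07). The riboside kinase NMRK1 (1.94 ± 0.18) and NNT (1.46 ± 0.09) were higher in cis. Of 19 dehydrogenases in a list made for NAD-linked enzymes, 9 were higher and 7 lower in cis. IDH1 (1.72 ± 0.07) and HADH (1.26 ± 0.09) were higher, and GPD2 (-1.45 ± 0.08) and LDHA (-0.81 ± 0.07) lower. IDH1 and GPD2 use other cofactors, so these counts are not of NAD-linked enzymes alone.

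Ribosomal proteins and lysosomal genes were also described by lists. Of 75 cytosolic ribosomal proteins, 53 were higher and 6 lower in cis (median 0.38). RPL30 stood at 179 to 214 CPM in wt and 452 to 480 in cis (1.31 ± 0.08), while RPS4X was lower (-0.44 ± 0.08). Pseudogenes of these genes could share reads with them. Of 22 autophagy and lysosome genes, 11 were higher and 9 lower. CTSL (1.12 ± 0.07) was higher in cis, and the regulator of lysosome genes TFEB gave 15.7, 18 and 14.9 CPM in wt and 1.70, 1.97 and 1.46 CPM in cis (-3.22 ± 0.15). CTSB was lower, with 380 to 417 CPM in wt and 118 to 130 in cis (-1.68 ± 0.07). Of 13 mitochondrially encoded genes, 5 were lower in cis. Library 11 held the highest share of mitochondrial counts, 6.2% against 3.56% and 3.53% in libraries 10 and 12, and 3.71% to 4.72% in cis. MT-CO2 gave 2958, 5539 and 3067 CPM in wt and 2253, 2447 and 1957 CPM in cis (-0.78 ± 0.26, adjusted p = 0.0308), so the highest wt value is that of library 11. Without library 11 the difference was -0.47 (adjusted p = 0.0118), that of MT-ATP6 went from -0.92 to -0.61, and the list's median went from -0.56 to -0.30.

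The largest single differences were genes at or near 0 in one line. In cis, 98 genes had at least 50 counts in each library and at most 3 in every wt library, 90 of them protein-coding, and 191 genes (155 protein-coding) were present in wt only. The same pattern held in untreated cells for 50 of the 98 and for 123 of the 191. The scavenger receptor and fatty acid transporter CD36 had 1115, 1119 and 1159 counts in cis and 0 in each wt library, or at least 975-fold higher with 3 counts over the wt group as floor. The peptidase ECEL1 was at least 238-fold higher and the epoxide hydrolase EPHX2 at least 162-fold higher on the same floor. KHDRBS3, an RNA-binding protein, had 2810, 2604 and 2781 counts in cis and 2, 1 and 1 in wt, a ratio of 1766 with a 95% exact counting interval from 689 to 6481. SLC4A4 (a bicarbonate carrier), BACE2 (a protease), GALNT14 (a glycosyltransferase) and FILIP1 were also nearly confined to cis among these 6 libraries. These intervals cover counting error only.

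In wt, the transcription factor SOX9 had 719, 840 and 763 counts against 0 in each cis library (at least 898-fold lower in cis), and the inflammatory caspase CASP1 649, 886 and 687 counts against 0 (at least 860-fold). MEST, an imprinted hydrolase gene, stood at 974 to 994 CPM in wt and at 0.169 to 0.283 in cis. The signalling regulator RGS1, with 2829 to 3674 counts in wt, had 0, 0 and 1 in cis. COL1A2 stood at 783, 668 and 751 CPM in wt and at 0.0566, 0.239 and 0 in cis. The deacetylase HDAC9 and the otoancorin gene OTOA behaved alike, with 109 to 141 CPM in wt and at most 0.0563 CPM in cis.

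Genes of epithelial and mesenchymal identity were led by differences of this kind. Of 12 tested, 3 were higher and 7 lower (median -1.33). TWIST1 and KRT19, near 0 in cis, passed the filter on low counts only through wt, which fixed their direction among the 7. TWIST1, a mesenchymal factor, gave 144, 168 and 144 CPM in wt and 0.283, 0.418 and 0.507 CPM in cis (-8.52 ± 0.14). SNAI2 was lower (-1.73 ± 0.08) and SNAI1 higher in cis (1.49 ± 0.16). The keratin KRT18 gave 6.77, 7.75 and 6.66 CPM in wt and 43, 40.7 and 39 CPM in cis (2.55 ± 0.10), with pseudogenes that may share reads, whereas KRT19 was at 7.26 to 7.97 CPM in wt and at most 0.12 in cis. The junction protein OCLN was higher in cis (1.74 ± 0.19). CDH1, which encodes E-cadherin, stood at no more than 0.212 CPM in any of the 6 libraries.

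The line difference of deprived, treated cells was then tested against that in each other condition, in fits that share the -SG carbo libraries. It differed from untreated cells for 9174 of 15705 genes (58.4%), with 4515 (28.7%) larger in the sense of higher in cis and 4659 (29.7%) smaller. From carboplatin alone it differed for 7979 of 15661 (50.9%), 23.4% larger and 27.6% smaller, and from deprivation alone for 8757 of 15803 (55.4%), 27.6% larger and 27.8% smaller. Differences of at least 2-fold made up 22.2%, 14.8% and 19.9% of the genes in these tests. Scaled by total counts the split of the first was 5709 to 3676, and of the second 4535 to 3460 in place of 3661 to 4318. The lines themselves differed for 78.5% of genes in untreated cells, 81.9% with carboplatin and 81.1% without serine and glycine. They differed in opposite directions for 1972 of 14022 genes in untreated against deprived, treated cells. The numbers were 1170 of 14421 genes for carboplatin alone and 1638 of 14458 for deprivation alone. Where both line differences were at least 2-fold, only 89, 44 and 81 genes were opposite, in the same order. Small opposite differences can depend on the scaling.

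Larger here means moved toward higher in cis and smaller means moved toward lower in cis, whatever the size. ATF4 targets had larger line differences than in untreated cells (26 of 31 larger and 1 smaller, median 0.97). The counts were 19 and 1 against carboplatin alone and 20 and 5 against deprivation alone. For SLC7A11 the gain was 2.70 ± 0.11 over untreated cells (adjusted p = 2.54e-12), 1.46 ± 0.12 over carboplatin alone and 2.64 ± 0.12 over deprivation alone. For CDKN1A the difference was -1.89 ± 0.08 from untreated cells and -2.73 ± 0.08 from deprived cells, but it did not pass against carboplatin alone (-0.05 ± 0.07, adjusted p = 0.576). p53 targets had 4 larger and 19 smaller differences than in untreated cells, 17 and 8 compared with carboplatin alone, and 3 and 26 compared with deprivation alone. Of 31 crosslink repair genes, 24 had a larger difference than in deprived cells and 1 a smaller one, 20 a larger and 1 a smaller one than in untreated cells, and 3 a larger and 15 a smaller one than with carboplatin alone. For cholesterol genes the line difference was smaller, that is further toward lower in cis, for 18 of 22 genes than in untreated cells. It was also smaller for 21 than with carboplatin alone, while deprivation alone gave 6 larger and 7 smaller. The factor RUNX3 was at 0.272 CPM in untreated wt, 22.7 with carboplatin, 0.0905 in deprived wt and 32.3 with both, against 64.4 to 83.5 CPM in cis. The difference of its line effect from untreated cells was -6.83 on the log2 scale, a fitted value that depends on the prior count because untreated wt had few counts.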

How the data were processed

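The authors deposited whole-number read counts per gene for 36 libraries, of which 24 were used here. Per the labels, RNA was purified with oligo-dT beads and built into SENSE Total RNA-Seq libraries, and the submitters' processing notes name STAR, HTSeq and GRCh37.p13. The strand setting and the treatment of reads with several alignments are not given in the sources used here. Symbols for 55538 of 57820 gene identifiers and exon lengths came from GENCODE mapped to GRCh37. The 3 table rows that name no gene stayed out of library sizes and tests, and of these only the share of reads on no feature is given in the text.

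Counts were fitted with edgeR 4.0.16 in R 4.3.3 (TMM, filterByExpr, robust glmQLFit, glmQLFTest) on the 6 libraries, and Benjamini-Hochberg adjusted p-values under 0.05 over all tested genes were called. A positive log2 value is higher in cis. Its SE is the absolute value over the square root of F. Differences of the line effect were interaction terms in fits of 12 libraries. CPM were scaled by TMM over the 24 wt and cis libraries. DESeq2 1.42.0, the tool of the study's methods, served as an alternative. With simulated counts, 100 of 100 genes changed by a log2 of 1 and 100 of 100 changed by 2 were recovered in the comparison of the lines (14771 genes). Depth sets the sampling noise of each count.

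Named genes were a fixed set (PHGDH, PSAT1, PSPH, SLC1A4, SLC1A5, ATF4, DDIT3, CDKN1A, MDM2, GDF15, PARP1), the called genes with the largest changes over all genes, in each list (at most 3 each way) and in each difference, and the genes nearly absent in one line. A few genes named by the rule are not reported here. The members, lists and rule were chosen with earlier results of these data known. Motifs were searched in RefSeq promoters. Alternatives were DESeq2, its size factors, total counts, other filters on low counts, a fit of all conditions, removal of the length trend, each library left out, and library 11 left out with library 23 or 24, the last chosen after seeing the data. Python 3.11.15 with pandas 2.3.3 and matplotlib 3.10.9 made the summaries and plots.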

Additional observations from a re-analysis of the deposited data

Results flagged for a closer look

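The difference between the lines was itself different from that in another condition, by an interaction term in edgeR, for 9174 genes against untreated cells, 7979 against carboplatin alone and 8757 against deprivation alone. All 3 comparisons use the -SG carbo libraries, so they are not independent. The values below are differences of 2 log2 line differences, positive where cis exceeded wt by more in deprived, treated cells.

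Against untreated cells, PHGDH gave 1.68, the next enzymes PSAT1 and PSPH 0.97 and 0.91, the carriers SLC1A4 and SLC1A5 0.44 and 0.68, ATF4 0.80, DDIT3 0.97 and PARP1 0.30. It was negative for p53 targets, at -1.89 for CDKN1A, -0.83 for MDM2 and -1.46 for GDF15. Of all protein-coding genes with enough counts, the highest were CPED1 at 6.00, A1CF at 5.23, HRK at 5.04 and HOXD9 at 4.99, and the lowest were RUNX3 at -6.83, MMP9 at -6.67, S100A3 at -6.15 and CX3CL1 at -6.12. CPED1 averaged 177 CPM in wt and 0.0407 in cis untreated, against 61.8 and 1.01 CPM in deprived, treated cells. The apoptosis gene HRK is low in both lines untreated, at 1.24 and 1.44 CPM, and differs in deprived, treated cells, at 0.376 CPM in wt and 14.5 in cis. The calcium-binding protein gene S100A3 averaged 256 CPM in deprived, treated wt cells and 7.52 in untreated ones. Where a line averaged well under 1 CPM, as CPED1, A1CF and HOXD9 did in untreated cis, the fitted size depends on the prior count. MMP9 had 2, 0 and 0 counts in deprived, treated cis cells, and its value ran from -9.30 to -6.13 with 1 library left out.

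Against carboplatin alone, the difference was 0.48 for PHGDH, 0.26 for PSPH, 0.83 for SLC1A4, 0.26 for ATF4, 0.85 for DDIT3, 0.49 for MDM2, 0.66 for GDF15 and -0.66 for PARP1. The highest were SLFN5 at 5.59, GBP3 at 5.50, KLHL14 at 4.83 and KLF4 at 4.78. The lowest were PLA2G3 at -3.64, GALNT18 at -3.44, ADGRE1 at -2.96 and ACAT2 at -2.89. GALNT18 had 2, 3 and 3 counts in deprived, treated wt cells, and its value ran from -5.27 to -2.97 with 1 library left out. The transcription factor KLF4 averaged 5.04 CPM in wt and 0.439 in cis with carboplatin, and 6.79 and 15.5 CPM in deprived, treated cells. ACAT2, a thiolase of the cholesterol pathway, averaged 62.6 CPM in cis with carboplatin and 8.39 in deprived, treated cis cells, against 37.2 and 37.1 in wt.

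Against deprivation alone, PHGDH gave 1.40, PSAT1 1.18, PSPH 0.60, SLC1A4 0.53, SLC1A5 0.98, ATF4 0.41 and PARP1 0.70. The value was -2.73 for CDKN1A, -1.17 for MDM2 and -3.08 for GDF15. The highest were UNC5C at 5.24, CNNM1 at 4.85, FUT1 at 4.84 and MOV10L1 at 4.32, and the lowest were RUNX3 at -8.62, C15orf48 at -8.21, CX3CL1 at -8.04 and IL32 at -8.03. The cytokine IL32 averaged 214 CPM in deprived, treated wt cells, 1.73 in deprived wt cells, and 0.71 and 1.49 in cis. UNC5C and CNNM1 had 0 CPM in deprived cis cells and at most 0.169 CPM in the cis libraries here, so their sizes rest on a few counts and on the prior count. MOV10L1 had 2, 1 and 1 counts in deprived, treated wt cells, so its size rests on a few counts as well.

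Apart from the genes, the share of counts on no feature was 17.9% in library 23 and 14.9% in library 24 of cis -SG carbo, against at most 8.77% in wt -SG carbo. The part of these reads in the results was not tested. Library 11, which is the library with a shift over transcript length, had 7.99%.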

How the results depend on the processing

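The 4 counts of called genes stayed within 1.5 times under DESeq2, its size factors, total counts, both filters on low counts, protein-coding genes alone, 1 fit of the 24 libraries and removal of the length trend, and the count between the lines also without libraries 11 and 23 or 11 and 24. With a log2 difference of at least 1 as a second criterion they were 5023 for the lines, and 3486, 2319 and 3137 for the differences from untreated cells, carboplatin alone and deprivation alone. With 1 library left out they ran from 10455 to 11834, 8626 to 9685, 7363 to 8572 and 8279 to 9264, in the same order. No called gene named here changed sign. With total counts the larger share of calls moved from lower to higher for the lines and for the 3 differences between conditions. For named genes, PHGDH passed with total counts (0.18) and without libraries 11 and 23 (0.12) and was at -0.07, not past the threshold, with the length trend removed, and MDM2 passed without library 11 and with 1 fit (-0.17). MT-ATP6 and MT-CO2 no longer passed without a filter on low counts or without library 24 (-0.84 and -0.69), MT-CO2 also not without library 23 (-0.83), and PLA2G3 lost its call in 7 settings, DESeq2 among them (-0.53). The differences from deprivation alone of UNC5C and CNNM1 no longer passed without library 24 (4.05 and 4.04). With total counts the NAD and PARP genes lower in cis went from 6 to 3, and without library 11, 1 NF-kB and 1 mitochondrial gene were higher. The causes were not tested. No paired analysis was possible because the labels give the libraries no replicate numbers shared between the lines. Depth limits genes of a few counts, and replicates are technical by the study's legends.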

Other observations

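The shares of genes higher and lower in cis differed between chromosomes, and the position of the genes along them was not analysed. On chromosome 13, 152 of 233 tested genes were lower in cis (65.2%) and 40 higher (17.2%), with a median log2 difference of -0.68, against 37.2% and 37.0% over all genes. The median was -0.93 in untreated cells, -0.75 with carboplatin and -0.87 without serine and glycine. On chromosome 8, 287 of 531 tested genes were higher in cis (54.0%) and 151 lower (28.4%), with a median of 0.35, and of 0.35, 0.31 and 0.39 in the same 3 conditions. Smaller departures were seen on chromosome 4 (49.7% higher, 28.3% lower), chromosome 15 (48.5% higher, 29.2% lower) and chromosome 19 (22.6% higher, 46.6% lower). These values were looked at after the data were seen and are descriptions without a test.

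A few lineage genes stood apart in a similar way in deprived, treated cells. The kidney and Müllerian transcription factor PAX2 was at 174 to 175.5 CPM in wt and had 1, 1 and 2 counts in cis. WT1 was at 0 counts in each wt library and at about 0.8 CPM in cis. COL1A1, the main chain of type I collagen, was at 866 to 1020 CPM in wt and at 1.64 to 2.33 CPM in cis, while COL3A1 was at 805 to 1015 CPM in wt and 626 to 671 in cis. DLX5, a homeobox factor, had 2575, 3471 and 2706 counts in wt and 3, 1 and 3 in cis. They were chosen after their values were seen, except DLX5.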
